A study of Mus musculus with 9 samples.

Results

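The genes described here are 10 transcription factors known from young retinal ganglion cells and other early retinal neurons: Ebf1, Ebf2, Ebf3, Ebf4, Irx2, Irx3, Irx5, Barhl2, Myt1 and Klf7. They were taken by symbol from both deposited tables, with no threshold on their values. Of the 10 genes, 9 are listed in the table of mutant against heterozygote retinas, among 12247 gene symbols, and 8 in the table of knock-in against mutant retinas, among 11989. Irx3 is in neither table, and Irx5 is in the first alone.

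RNA came from E12.5 retinas of CD-1 mouse embryos, with 3 samples in each of 3 groups that differ at Neurog2, a proneural bHLH gene. Heterozygotes were Neurog2GFP/+, mutants were Neurog2GFP/GFP, and knock-in retinas had GFP at one Neurog2 allele and a knock-in at the other, so every group, the heterozygote included, carried a GFP allele at Neurog2. Optic cups were picked as GFP-positive pairs and dissociated, and no cell sort is named. The tables hold one pooled value per transcript and group, in RPKM (reads scaled by transcript length and by library total). No value per sample can therefore be shown and the depth per sample is unknown, so the replicate error enters only through the p-value and q-value of the authors' test. The labels name no litter or culture for any sample, so those p-values measure the spread between these samples, which may be technical.

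Retinal ganglion cells are the first neurons of the retina. Atoh7 makes progenitors competent to form them, Pou4f2 and Isl1 then start the programme of the new cell, and factors such as the Ebf and Irx proteins act in the cells that have already begun to differentiate. Ebf proteins bind DNA through a zinc-containing domain and dimerize through a helix-loop-helix. Irx and Barhl2 proteins are homeodomain factors, Myt1 is a zinc finger protein of new neurons, and Klf7 is a Kruppel-like factor linked to axon outgrowth. Several of them also act in amacrine, horizontal or bipolar cells, and Ebf and Irx genes are expressed in mesenchyme and ectoderm around the eye as well.

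Proneural bHLH proteins bind the E-box, a hexamer CANNTG read the same on both strands. The 250 bases before an annotated start of each of the 3 genes that changed are shown for this reason, from the RefSeq promoter table of GRCm38.p6, the assembly behind mm10. The RefSeq bounds of Irx2 (from 72624430) and Ebf3 (to 137322805) reach upstream of these windows, and the bases before those bounds are not shown. Each is 5′ to 3′ on the strand of its gene, with every E-box in capitals. Irx2 is chr13:72628570-72628819 on the plus strand, Barhl2 is chr5:106458167-106458416 on the minus strand and Ebf3 is chr7:137314446-137314695 on the minus strand.
Irx2: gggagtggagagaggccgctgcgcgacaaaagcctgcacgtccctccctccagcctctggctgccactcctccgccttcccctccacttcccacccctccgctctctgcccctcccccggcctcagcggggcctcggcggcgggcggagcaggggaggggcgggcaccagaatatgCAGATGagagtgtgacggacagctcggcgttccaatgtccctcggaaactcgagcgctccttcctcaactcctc
Barhl2: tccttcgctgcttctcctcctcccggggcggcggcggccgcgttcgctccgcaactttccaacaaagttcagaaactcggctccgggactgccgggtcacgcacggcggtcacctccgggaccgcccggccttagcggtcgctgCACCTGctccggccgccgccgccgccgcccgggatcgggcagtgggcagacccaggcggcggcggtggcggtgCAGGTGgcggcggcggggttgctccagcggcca
Ebf3: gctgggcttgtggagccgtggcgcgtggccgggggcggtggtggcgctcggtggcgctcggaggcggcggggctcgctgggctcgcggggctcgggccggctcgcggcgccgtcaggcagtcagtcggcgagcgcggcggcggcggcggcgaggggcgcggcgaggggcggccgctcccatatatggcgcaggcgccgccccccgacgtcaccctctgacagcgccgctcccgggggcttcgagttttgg
The E-box of Irx2 begins 74 bases before the start. Those of Barhl2 begin 106 and 33 bases before its start and are the same word on opposite strands, and the Ebf3 window held no E-box. The table matched 8 of the 10 genes, with 11 start sites; Ebf2 and Irx5 had no entry. Among these 8 genes an E-box was found for Barhl2, Ebf1, Irx2 and Myt1, in 5 of the 11 windows. Across all 32851 promoter windows of this length, 66.2% held any E-box. The particular word in Irx2, on either strand, was in 14.4% of windows, and that in Barhl2, on either strand, was in 17.2%. Another E-box word, CAGCTG (13% of all windows), was in none of the windows of these genes. Nor was the palindromic Ebf consensus (0.779%), or the homeodomain word TAATTA (4.84%). A match here is a match of letters, and a missing one says only that the letters are not in these windows.

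The targeted gene and the other tissues were looked at first. Neurog2 was at 30.2 RPKM in heterozygotes and 36.2 RPKM in the mutant (q = 0.993), and rose from 35.5 to 112 RPKM in the knock-in group (q = 0.0104 by the authors' deposited table). The values do not separate coding from untranslated sequence or the alleles from each other, so they do not check the loss of Neurog2. With no value that checks the genotypes, the groups are called mutant-labelled and knock-in-labelled. The defining ganglion cell genes Pou4f2 and Isl1 and all 12 progenitor markers examined were listed. Sex-linked genes moved with the groups. The Y-linked genes Eif2s3y and Kdm5d, at 21.9 and 12.8 RPKM in heterozygotes and 28.6 and 19.3 RPKM in knock-in-labelled retinas, are listed at 0 for mutant-labelled retinas. Xist was at 184 RPKM in heterozygotes, 505 RPKM in mutant-labelled and 174 RPKM in knock-in-labelled retinas; none of these genes was called. The part of sex in the results below was not tested. Sample titles carry the number 466 for heterozygote and mutant samples and 311 for knock-in samples, so whatever that number marks cannot be told apart from the knock-in label.

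Most of these factors were lower in the mutant-labelled retinas. Irx2, Barhl2 and Ebf3 fell to between 39.8% and 49.4% of their heterozygote level, and Ebf1, Irx5, Myt1, Ebf2 and Klf7 were lower without passing the test. Ebf4 alone was not lower. The question of the comparison is the effect of GFP at both Neurog2 alleles instead of at 1. Of the 9 listed genes, 3 had a transcript called lower (q of 0.05 or less) and 0 had one called higher, where 1.09% of all genes were called lower and 0.245% higher. The median log2 ratio of summed RPKM was -1.02 for the 9 genes and 0.03 for all genes. Summed RPKM was lower for 8 of 9, and 7 of 9 had a transcript that was lower at an unadjusted p under 0.05. The corresponding shares of all genes were 45.4% and 6.2%. No member had a higher transcript at that p, against 4.85% of all genes. By transcript, 4 of the 23 were called, against 0.608% of all transcripts. No row is listed with both groups below 0.906 RPKM. Irx5, at 0.544 RPKM in mutant-labelled retinas, could therefore be listed only with a lower value there, and it is part of these counts. The same holds for a transcript of Ebf1 (0.786 RPKM), of Ebf3 (0.279 RPKM) and of Myt1 (0.000677 RPKM). A transcript of Ebf4, at 0.749 RPKM in heterozygotes, could be listed only with a higher value in mutant-labelled retinas. In these bulk samples, fewer cells of a type and less RNA per cell cannot be told apart.

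**Figure D1:**
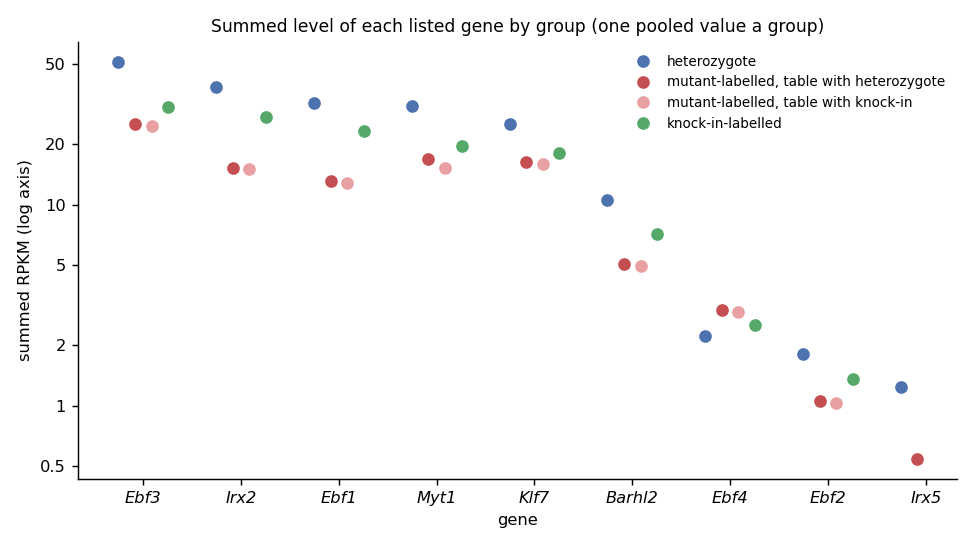
Summed RPKM of each listed gene (log axis) in heterozygotes, in mutant-labelled retinas as each table gives it, and in knock-in-labelled retinas; each point is one pooled value, so there are no error bars. In 7 of the 8 genes listed in both tables the mutant-labelled points lie below both other groups, and Ebf4 is the exception.

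Of the 2 Iroquois genes listed, Irx2 and Irx5, Irx2 had the higher level. Irx2 (mm10 chromosome 13, 72628820 to 72634198, plus strand, up to 5 annotated exons) was at a summed 38.5 RPKM in heterozygotes and 15.3 RPKM in mutant-labelled retinas, a 2.51-fold difference. Both of its listed transcripts were called. The more abundant fell from 30.9 to 11.5 RPKM (log2 ratio -1.42, q = 0.0109) and the other from 7.56 to 3.79 RPKM (log2 ratio -1.0, q = 0.0286 by the authors' deposited table). Among members with more than 1 listed transcript, Irx2 was the one with every transcript called. Irx5 (chromosome 8, 92357796 to 92361456), a factor of bipolar cells and also found in ganglion cells, was at 1.24 RPKM in heterozygotes and 0.544 RPKM in mutant-labelled retinas (p = 0.00215, q = 0.191 by the authors' deposited table). At this level Irx5 made up 3.12% of the sum of these 2 genes in heterozygotes, and Irx2 made up 96.9%. Irx3 lies on the same chromosome as Irx5 (chromosome 8, 91798525 to 91802067 in GENCODE). The lowest value of the higher group in any row was 0.906 RPKM in the first table and 1.04 RPKM in the second, and no value can be given for Irx3.

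Barhl2 (chromosome 5, 106452523 to 106458166, minus strand, 3 exons) works in amacrine and ganglion cell subtypes. Its single transcript was at 10.6 RPKM in heterozygotes and 5.07 RPKM in mutant-labelled retinas, a 2.09-fold fall (log2 ratio -1.06, q = 0.0109 by the authors' deposited table). No other gene is annotated over Barhl2, Irx2, Irx5, Ebf4 or Myt1 in GENCODE, while genes on the other strand overlap Ebf1, Ebf2, Ebf3 and Klf7.

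The Ebf family had the highest summed level of the set. Ebf1 to Ebf4 together were at 87.5 RPKM in heterozygotes and 42.5 RPKM in mutant-labelled retinas. Ebf3 made up 58.6% and Ebf1 36.8% of the heterozygote sum, while Ebf4 and Ebf2 made up 2.54% and 2.05%. The shares of Ebf3 and Ebf1 in mutant-labelled retinas were 59.6% and 30.9%.

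Ebf3 (chromosome 7, 137193673 to 137314445, minus strand) was at a summed 51.3 RPKM in heterozygotes and 25.3 RPKM in mutant-labelled retinas. One of its 4 listed transcripts was called, falling from 28.9 to 11.6 RPKM (log2 ratio -1.31, q = 0.0204 by the authors' deposited table). The second in abundance was at 18.8 and 11.0 RPKM and did not pass (p = 0.00675, q = 0.379 by the authors' deposited table). Another was at 2.66 and 2.42 RPKM (q = 0.995 by the authors' deposited table). The most abundant transcript thus went from 56.3% to 46.0% of the Ebf3 sum, without a test of that shift. For Ebf3 the overlapping genes are Gm10578 and Gm45278, and whether the counting used strand is not stated.

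Ebf1 (chromosome 11, 44617317 to 45008091, plus strand) had a larger fold difference of summed RPKM than Ebf3 and no call. Its summed level was 32.2 RPKM in heterozygotes and 13.1 RPKM in mutant-labelled retinas, a log2 ratio of -1.29. The signal was divided over 4 transcripts, all lower. The most abundant was at 16.4 and 6.56 RPKM, with p = 0.263 (q = 0.993 by the authors' deposited table). The next was at 7.59 and 3.56 RPKM (p = 0.0021, q = 0.189), and the one after that at 6.51 and 2.22 RPKM (p = 0.0062, q = 0.361 by the authors' deposited table). The tables test transcripts and not genes, so the summed Ebf1 difference has no test.

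The remaining Ebf genes were near the lower end of what is listed. Ebf2 (chromosome 14, 67233292 to 67437171) was at 1.8 RPKM in heterozygotes and 1.05 RPKM in mutant-labelled retinas (p = 0.0163, q = 0.609 by the authors' deposited table). Ebf4 (chromosome 2, 130295169 to 130370481) was at a summed 2.22 and 2.98 RPKM, the one member with a higher value in mutant-labelled retinas. Neither of its transcripts was near the threshold (p = 0.537 and 0.913 by the authors' deposited table). The first, at 0.749 RPKM in heterozygotes and 1.4 RPKM in mutant-labelled retinas, could be listed only with a higher value in the latter. The second was at 1.47 and 1.58 RPKM.

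Klf7 (chromosome 1, 64029447 to 64122282, minus strand) had the smallest fold difference of summed RPKM among the genes that were lower. Its main transcript was at 23.2 RPKM in heterozygotes and 15.0 RPKM in mutant-labelled retinas (log2 ratio -0.63, p = 0.0034, q = 0.252), and the minor one was at 2.23 and 1.26 RPKM (q = 0.437 by the authors' deposited table). Myt1 (chromosome 2, 181763332 to 181827797, plus strand) was at a summed 30.9 and 16.9 RPKM over 6 transcripts, a log2 ratio of -0.87. All 6 were lower and none had an unadjusted p below 0.179. One Myt1 transcript was at 4.19 RPKM in heterozygotes and 0.000677 RPKM in mutant-labelled retinas and still had p = 0.205 by the authors' deposited table.

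**Figure D2:**
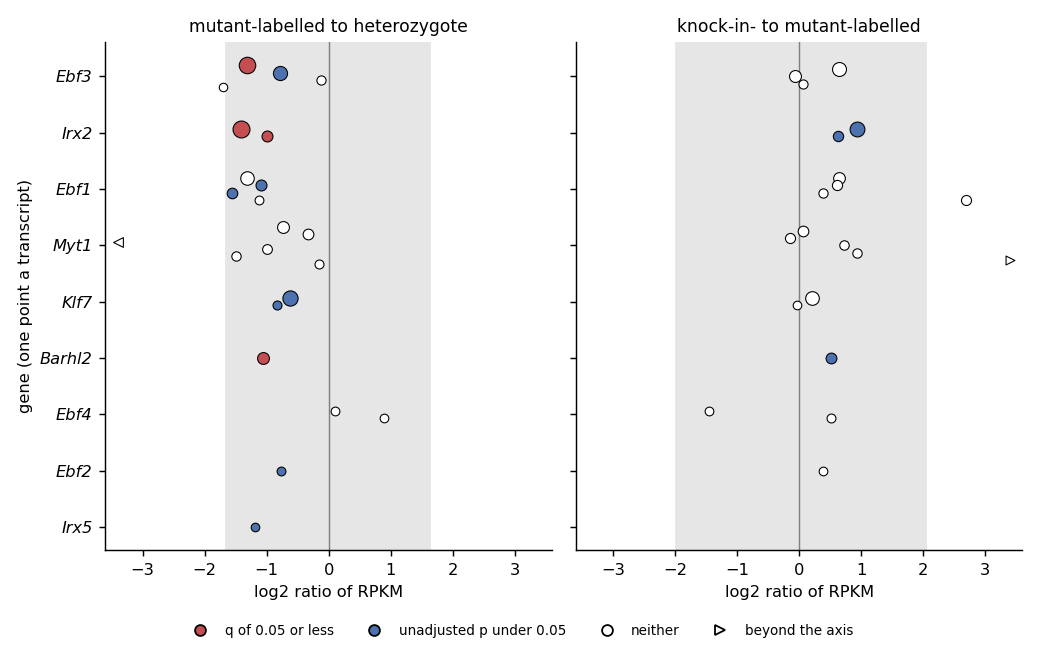
Log2 ratio of RPKM for every listed transcript of the set in both comparisons, with point size growing with RPKM; red marks q of 0.05 or less, blue an unadjusted p under 0.05, white neither, and triangles lie beyond the axis. The grey band spans the 5th to 95th percentile of all transcripts (-1.65 to 1.64 on the left, -1.98 to 2.05 on the right). On the left 21 of 23 points are below 0 and 4 are red, and on the right 16 of 20 are above 0 and none is red. Over all transcripts, 48.3% were lower on the left and 49.7% on the right. Transcripts with both groups below 0.906 RPKM (left) or 1.04 RPKM (right) are not listed. A transcript with one group below that value could be listed only with the other group higher.

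In the knock-in-labelled retinas most of the set was above the mutant-labelled level and no member passed the test. The comparison asks what the knock-in allele changes where no intact Neurog2 allele is left by the labels. Of 8 listed genes, 0 were called in either direction at q of 0.05 or less, where 1.03% of all genes were called higher and 0.634% lower. At an unadjusted p under 0.05 in the authors' Cuffdiff test, 2 of the 8 genes, Irx2 and Barhl2, had a transcript that was higher and 0 had one that was lower. That share is 8.56% over all genes for higher and 6.46% for lower. By transcript, 0 of 20 were called, against 0.756% of all. Summed RPKM was higher for 7 of 8, with a median log2 ratio of 0.38 against 0 for all genes (50.3% of which were lower). No row here has both groups below 1.04 RPKM, so Ebf2, at 1.03 RPKM in mutant-labelled retinas, could be listed only with a higher value. The same holds for a transcript of Ebf1 (0.77 RPKM) and of Myt1 (0.000453 RPKM), which are part of these sums and counts. A transcript of Ebf4, at 0.567 RPKM in knock-in-labelled retinas, could be listed only with a lower value there. The comparisons share the mutant-labelled samples, so a low value there moves both.

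Irx2 had the highest ratio of summed RPKM. It was at 15.0 RPKM in mutant-labelled retinas and 27.4 RPKM in knock-in-labelled retinas, a log2 ratio of 0.87. Its main transcript was at 11.3 and 21.6 RPKM (p = 0.007, q = 0.291) and the other at 3.72 and 5.75 RPKM (p = 0.0139, q = 0.402 by the authors' deposited table). Barhl2 was at 4.97 and 7.14 RPKM (log2 ratio 0.52, p = 0.0082, q = 0.321 by the authors' deposited table). These are the 3 transcripts of the set with an unadjusted p under 0.05.

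The Ebf family sum was 41.4 RPKM in mutant-labelled and 57.9 RPKM in knock-in-labelled retinas. Ebf1 was at 12.9 and 23.2 RPKM (log2 ratio 0.85), Ebf3 at 24.6 and 30.8 RPKM (0.33), and Ebf2 at 1.03 and 1.36 RPKM (0.39). The lowest p was 0.0614 for Ebf3, 0.0696 for Ebf1 and 0.229 for Ebf2. Ebf4 was at 2.92 and 2.53 RPKM, the one member with a lower sum. Myt1 was at 15.2 and 19.7 RPKM (0.38) and Klf7 at 16 and 18.1 RPKM (0.18), with lowest p-values of 0.234 and 0.335. Irx5, not listed in this table, was at 0.544 RPKM in mutant-labelled retinas by the other table.

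Transcripts could be followed through all 3 groups by their mutant-labelled value. The tables were normalized separately, but the mutant-labelled samples are the same, and their values could be compared for 5047 genes that have 1 transcript in each table. The log2 ratio of second to first value had a median of -0.028, and 98.63% of genes were no more than 0.05 away. A transcript was matched where exactly 1 transcript of the same gene met that tolerance. The matches cover every Ebf1, Ebf2, Ebf4, Irx2, Barhl2 and Klf7 transcript, 3 of 4 of Ebf3 and 1 of 6 of Myt1.

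Within Ebf3, the transcripts differed in what followed the fall. The called one went from 28.9 RPKM in heterozygotes to 11.6 RPKM and was at 18.0 RPKM in knock-in-labelled retinas. The second went from 18.8 to 11.0 RPKM and was at 10.3 RPKM. This difference between transcripts was not tested. Within Ebf1, the 3 more abundant transcripts were at 10.1, 5.31 and 2.83 RPKM in knock-in-labelled retinas, below their heterozygote levels. The least abundant was at 1.71 RPKM in heterozygotes, 0.786 RPKM in mutant-labelled retinas and 4.97 RPKM in knock-in-labelled retinas (p = 0.301 for the last step by the authors' deposited table). It took up 5.31% of the Ebf1 sum in heterozygotes and 21.4% in knock-in-labelled retinas, so it accounts for 4.97 of the 23.2 RPKM there. The 2 Ebf4 transcripts went opposite ways, from 1.55 to 0.567 RPKM and from 1.37 to 1.96 RPKM (p = 0.367 and 0.478 by the authors' deposited table).

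**Figure D3:**
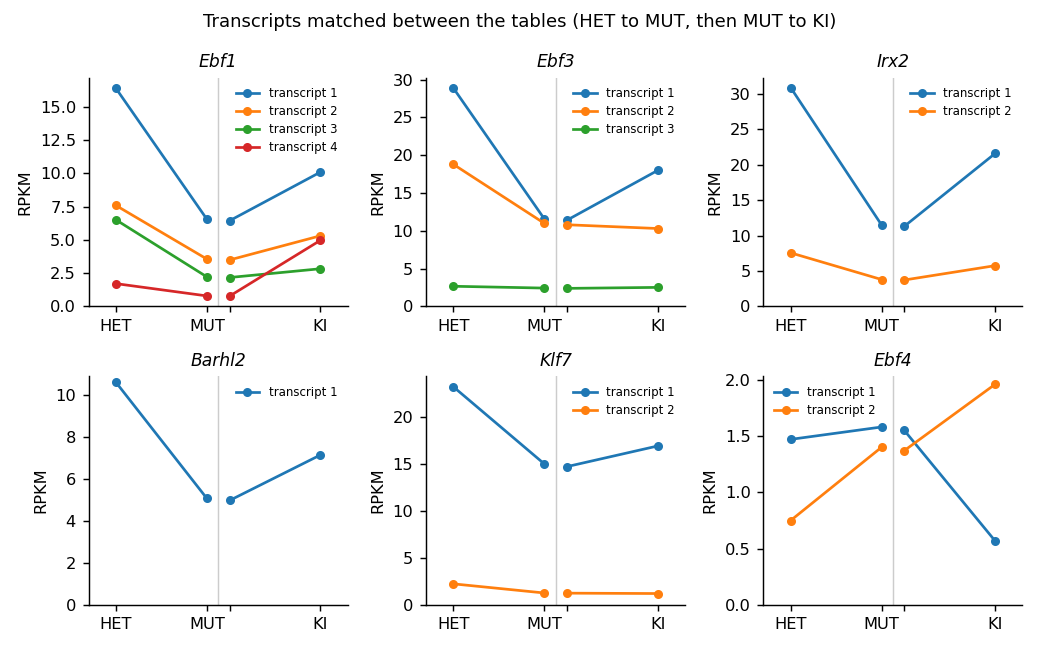
RPKM of matched transcripts in heterozygotes (HET), mutant-labelled (MUT) and knock-in-labelled (KI) groups, one line colour a transcript; the vertical line separates the tables, so the mutant-labelled value appears on each side of it. The main Irx2 transcript runs from 30.9 to 11.5 and then to 21.6 RPKM, and the leading Ebf3 transcript parts from the second on the right.

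Set beside the heterozygote, 7 of the 8 genes stood lower in knock-in-labelled retinas. The knock-in values were first multiplied by 1.02, the median ratio of the mutant values. The knock-in-labelled level was then 61.2% of the heterozygote level for Ebf3, 65.0% for Myt1, 68.8% for Barhl2, 72.5% for Irx2, 72.6% for Klf7, 73.5% for Ebf1 and 77.0% for Ebf2, with Ebf4 at 116%. For comparison, 47.0% of 11829 genes in both tables stood below their heterozygote level, with a median of 102%. No test links these groups, because no table holds both. For Ebf3 and Myt1 the sums cover 4 and 6 transcripts in the first table and 3 and 5 in the second. In order of summed level, the heterozygote ran Ebf3, Irx2, Ebf1, Myt1, Klf7, Barhl2, Ebf4, Ebf2 and Irx5. In the knock-in-labelled group Ebf3, Irx2 and Ebf1 again came first, at 30.8, 27.4 and 23.2 RPKM. Without values per sample, whether neighbours in this order differ beyond their spread cannot be said.

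Genes above and beside the set showed lower values as well. Of 13 listed upstream and core ganglion cell factors, 5 were called lower in mutant-labelled retinas and 0 higher, with a median log2 ratio of -0.68. Over all genes, 1.09% were called lower and 0.245% higher. Nhlh1, a bHLH gene of new neurons, fell from 14.5 to 5.26 RPKM, and Pou4f2 fell from 53.1 to 31.1 RPKM (both q = 0.0109 by the authors' deposited table). Atoh7, which like the relatives and partners below was picked after its values were seen, was at 195 and 148 RPKM (q = 0.527 by the authors' deposited table). In the knock-in-labelled group Pou4f2 rose from 30.5 to 70.9 RPKM (q = 0.0104 by the authors' deposited table). Onecut2, of horizontal and ganglion cells, rose by a transcript (q = 0.0104 by the authors' deposited table), while its sum went from 23.1 to 38.4 RPKM. Pou4f2 and Onecut2 were the 2 calls among the 13, where 1.03% of all genes were called higher. Relative to the heterozygote, Pou4f2 stood at 136% and Atoh7 at 108%, and 9 of the 13 stood below 100%, with a median of 92.7%. The median of the 8 later factors was 72.5%, and the difference between these lists was not tested.

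Of 22 listed ganglion cell differentiation genes, 13 were called lower in mutant-labelled retinas and 0 higher, with a median log2 ratio of -1.03. The shares of all genes were 1.09% lower and 0.245% higher. L1cam, a cell adhesion protein of axons, fell from 15.8 to 5.76 RPKM and Nefl, a neurofilament subunit, from 42.8 to 14.7 RPKM (both q = 0.0109 by the authors' deposited table). In the knock-in-labelled group Rbpms was the 1 call among the 22 (10.1 to 23.7 RPKM summed, q = 0.0104 by the authors' deposited table), and the median was 0.36. There 1.03% of all genes were called higher. Against the heterozygote, 18 of 22 stood lower, with a median of 66.1%. Of 8 listed amacrine, horizontal and bipolar factors, 2 were called lower in mutant-labelled retinas, Prdm13 and Onecut3, and the median was -0.59. Prdm13, at 2.33 RPKM in heterozygotes and 0.712 RPKM in mutant-labelled retinas, could be listed only with a lower value in the latter. None of the 8 was called in knock-in-labelled retinas (median -0.1).

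No listed relative or partner of the set was called. Of 12 relatives, Irx1, Irx4, Irx6, Barhl1, Myt1l and Klf9 are not listed in either comparison. Of 6 listed relatives (St18, Klf6, Klf3, Klf4, Klf12 and Klf13), 0 were called in either comparison, with medians of -0.08 and -0.24. Over all genes, 1.09% were called lower and 0.245% higher in the first comparison, and 0.634% and 1.03% in the second. So few genes would seldom include a call at such shares. At an unadjusted p under 0.05 in the authors' Cuffdiff test, 0 of the 6 had a transcript in the mutant-labelled comparison and 1, Klf3, had a lower one in the knock-in-labelled comparison. Klf3 and Klf12 were the most abundant. Klf3 was at a summed 75.4 RPKM in heterozygotes and 94.1 RPKM in mutant-labelled retinas, and Klf12 at 17.7 and 17.1 RPKM. In the second table Klf3 was at 92.1 and 63.7 RPKM and Klf12 at 16.8 and 14.3 RPKM. St18, a relative of Myt1, was at a summed 6.79 and 2.79 RPKM in heterozygotes and mutant-labelled retinas, a log2 ratio of -1.28. The lowest p of its transcripts was 0.14 in the authors' deposited table. Zfp423 and Zfp521 encode zinc finger proteins that bind Ebf proteins. Zfp423 was at a summed 47.4 and 60.2 RPKM in heterozygotes and mutant-labelled retinas, with the lowest p for a transcript that went from 5.23 to 22.2 RPKM (p = 0.0063, q = 0.364 by the authors' deposited table). Zfp521 was at 14.8 and 14.5 RPKM. With the co-repressor genes Rcor2 and Kdm1a, none of these 4 was called in either comparison. Of the 4, 2 (Zfp423 higher, Rcor2 lower) were under an unadjusted p of 0.05 by the authors' test, both in the mutant-labelled comparison. At that p, 6.2% of all genes had a lower transcript there and 4.85% a higher one.

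By likeness of pattern over the pair of log2 ratios, each of the called members had near neighbours among 11252 genes with at least 1 RPKM in every group. The gene nearest to Irx2 was Ebf1 (distance 0.039 on the log2 scale), followed by Crygn and Chrna5, a nicotinic receptor subunit. The genes nearest to Barhl2 were Syp, encoding synaptophysin, at 0.028, then 2610027K06Rik and Terc. Those nearest to Ebf3 were Gm27419 at 0.039, Scg3, encoding a secretogranin, at 0.04, and Gap43, a growth cone protein, at 0.061. Of these 9 neighbours, Chrna5, Syp and Gap43 were called lower in mutant-labelled retinas, and none was called in knock-in-labelled retinas. The likeness rests on 2 differences that share a group. For Crygn, with 1 listed transcript in the first table and 2 in the second, and 2610027K06Rik, with 3 and 2, the differences also come from different sets of transcripts. The same holds for Ebf3 itself, with 4 and 3. For Ebf1, the summed knock-in ratio of 0.85 includes the least abundant transcript, which went from 0.77 to 4.97 RPKM. With the most abundant transcript alone, that ratio was 0.65 for Ebf1 and 0.94 for Irx2.

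**Figure D4:**
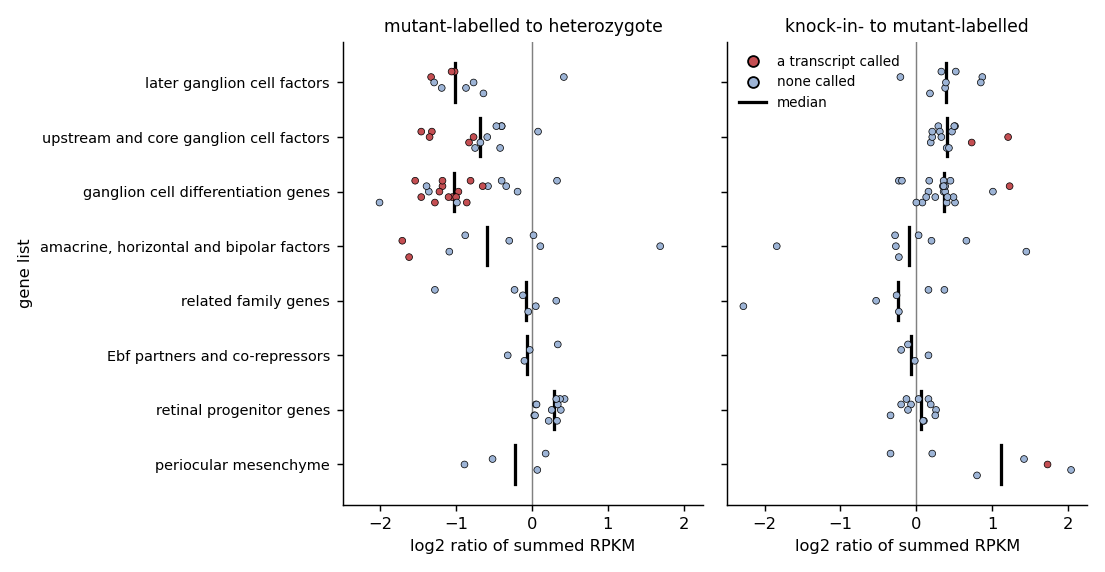
Log2 ratio of summed RPKM for the later ganglion cell factors and for 7 gene lists in both comparisons; each point is a gene, red where a transcript was called, and the bar is the list's median. The later factors have a median of -1.02 on the left and 0.38 on the right, against 0.29 and 0.06 for the progenitor genes.

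Markers of other cells were set beside these results. All 12 progenitor genes had higher sums in mutant-labelled retinas, without a call (median 0.29). Periocular mesenchyme, which can express Ebf and Irx genes, had 4 of 12 markers listed in the first comparison, totalling 25.5 RPKM in heterozygotes and 24.4 RPKM in mutant-labelled retinas, single genes lying between 1.25 and 12.8 RPKM. Foxc1, Foxc2 and Prrx1, which mark that mesenchyme, are not listed in either table. In the second comparison 6 of 12 were listed, totalling 25.1 and 36.7 RPKM (0.288 to 12.6 and 1.18 to 14.5 RPKM), with Lum called higher. Surface ectoderm had 2 of 9 markers listed, totalling 6.95 and 10.4 RPKM in the first comparison and 10.2 and 16.8 RPKM in the second, where Krt18 was called higher. Endothelium and macrophages had 3 of 10 listed, with totals of 34.5 and 34.9 RPKM and then 34.2 and 27.6 RPKM, and no call.

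The knock-in-labelled group also held more RNA of pigment epithelium, lens and blood. Over all genes, 1.03% were called higher and 0.634% lower. Of 10 listed pigment genes 6 were called higher, and the list's total was 31.7 RPKM in mutant-labelled and 105 RPKM in knock-in-labelled retinas. Tyrp1, Slc45a2, Mitf, Mlana and Ttr were below 1.04 RPKM in mutant-labelled retinas. They could be listed only through a higher knock-in-labelled value, and Tyrp1 and Slc45a2 are among the 6 calls. Of 8 listed lens genes 3 were called higher (totals of 39.0 and 138 RPKM), with Foxe3 listed at 0 in mutant-labelled retinas, and of 7 blood genes 2 were (35.1 and 131 RPKM). The same limit holds for the lens genes Foxe3, which was called, and Lim2. It also holds for the blood genes Hbb-bh1, Hba-a1, Hbb-bs, Hbb-bt and Alas2, none of them called. Of 9 immediate early and stress genes 7 were called lower, with totals of 187 and 48.6 RPKM. Between heterozygotes and mutant-labelled retinas fewer were listed, 5 for pigment, 6 for lens and 5 for blood. There were 0 calls among them for pigment (totals of 26.7 and 30.2 RPKM), lens (60.8 and 38.9 RPKM) and blood (30.8 and 34.8 RPKM). Of 9 stress genes 1 was called lower, Hspa1a, which has a near-identical copy in Hspa1b (list totals of 170 and 191 RPKM). The part of these tissues and of handling in the values of the later factors was not tested.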

How the data were processed

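Total RNA of E12.5 retinas was sequenced, 3 samples in each of 3 groups taken from the labelled genotypes. Per the submitters' processing notes, Bowtie2, Cufflinks and Cuffdiff were used with mm10, and the sources used here give no versions. The authors deposited 1 table per comparison with an RPKM value per transcript and group, per the file headers, with replicates pooled. The authors also deposited a p-value and q-value per transcript and a test statistic, a score that was not used. The q-values are by the authors' Cuffdiff test; recomputing them by Benjamini and Hochberg's method over all 27311 and 26586 transcripts gave the same values to within 5.26e-07, and the lowest possible were 0.0109 and 0.0104. A transcript was called at q of 0.05 or less, and a gene where any transcript was.

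Log2 ratios were recomputed from RPKM with no pseudocount, and RPKM was summed over a gene's listed transcripts (pandas 2.3.3). Loci are the authors', given from base 1; their starts equal GENCODE gene starts for the called genes. The adjustment and the sums were tested on simulated data. Genes outside the 10 were named by rule: up to 4 called members of each of 14 lists by smallest p, or the 2 most abundant without a call, and the 3 most similar genes of each called member; the text gives some of these and says where a name falls outside the rule. Symbols turned into dates (57 and 55 transcripts) or missing (116 and 117) stayed out of values by gene. The members and lists were chosen with earlier results of these data known. Some items are not reported here.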

Additional observations from a re-analysis of the deposited data

How the results depend on the processing

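The count of called genes of the set was 3 for mutant-labelled against heterozygote retinas and 0 for knock-in-labelled against mutant-labelled retinas. Both counts were the same at a q of 0.1 or less and with only the most abundant transcript of each gene. They were also the same with only transcripts of at least 1 RPKM in both groups. The last 2 settings had p-values adjusted again, and the 3 genes were Barhl2, Ebf3 and Irx2 each time. For these 3 genes the sameness was largely fixed in advance. A looser q cannot lose a call, and the most abundant transcript of each was called and above 1 RPKM in both groups. Single log2 ratios were recomputed with a pseudocount of 0.1 or 1 RPKM, with the most abundant transcript, without low transcripts and centred on the median of all genes. This gave 85 values, of which 83 kept their sign and moved by less than 1.5-fold. Part of that was fixed in advance. Leaving out transcripts below 1 RPKM in both groups removed none in the knock-in comparison, where the lowest higher-group value was 1.04 RPKM. The medians of all genes were 0.03 and 0, so centring could hardly move a ratio. With the most abundant transcript, the Ebf4 ratio of knock-in-labelled to mutant-labelled retinas turned from -0.21 to 0.51, as the construction of that setting drops the transcript that went down. With 1 RPKM added, the Irx5 ratio went from -1.19 to -0.54, as adding a constant does at such a level. Leaving out each replicate in turn was not run, since the tables hold only pooled values. No paired analysis was possible because the tables hold no values per sample. With no depth given for any library, what depth limits cannot be stated.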
